A study of Homo sapiens with 6 samples.

Results

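A set of 10 genes for secreted chemokines and cytokines were followed in LN229 cells, an established human glioblastoma line, with and without overexpression of the long non-coding RNA gene HSD52. They were the 10 rows, of 58735 in the deposited count table, named CCL2, CXCL1, CXCL2, CXCL3, CXCL8, IL6, IL11, LIF, CSF1 and IL1B. Both groups had 3 libraries of poly-A RNA. The HSD52_OE cells were labelled as LN229 with HSD52 overexpression, and the control cells as LN229 of WT genotype. The labels leave unstated if an empty vector was used in control cells, which construct drove HSD52, whether the overexpressing cells were 1 clone or a pool, or whether replicates were separate cultures. All p-values thus rest on the variation among the libraries of a group alone, and some of it may be technical.

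Chemokines are small secreted proteins that draw leukocytes along a concentration gradient. CCL2 recruits monocytes and macrophages through the receptor CCR2, and CXCL1, CXCL2, CXCL3 and CXCL8 attract neutrophils through CXCR2 and, for CXCL8, also CXCR1. IL6, IL11 and LIF are cytokines that signal through the shared receptor chain gp130, encoded by IL6ST. CSF1 supports the survival of macrophages and microglia through CSF1R, and IL1B is an inflammatory cytokine that is cut to its active form before release. Glioblastoma cells are known to secrete several of these factors, and many of the genes are known to be induced through NF-kB, C/EBP and AP-1 transcription factors.

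The CXC chemokine genes lie in a cluster on chromosome 4, and the starts of CXCL1, CXCL2 and CXCL3 are close copies of each other. Of the 10 genes, 7 were found in the RefSeq promoter table (build GRCh38.p14). The 150 bases before the RefSeq start are shown for CXCL1, CXCL2 and CXCL3, whose windows are alike although their levels differ. The windows of CXCL8, from the same cluster but with another sequence, and of IL11, which did not fall with CXCL8, are shown too. Each is written 5′ to 3′ on the strand of the gene, and capitals mark the motif matches described after the sequences.
CXCL1: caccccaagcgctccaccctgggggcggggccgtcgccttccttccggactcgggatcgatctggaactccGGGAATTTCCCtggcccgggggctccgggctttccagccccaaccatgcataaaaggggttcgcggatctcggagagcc
CXCL2: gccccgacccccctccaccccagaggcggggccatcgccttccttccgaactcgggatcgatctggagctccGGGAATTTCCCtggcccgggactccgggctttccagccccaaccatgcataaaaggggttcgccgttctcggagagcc
CXCL3: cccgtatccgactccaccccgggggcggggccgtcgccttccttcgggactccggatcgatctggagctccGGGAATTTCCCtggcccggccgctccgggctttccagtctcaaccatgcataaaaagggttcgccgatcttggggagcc
CXCL8: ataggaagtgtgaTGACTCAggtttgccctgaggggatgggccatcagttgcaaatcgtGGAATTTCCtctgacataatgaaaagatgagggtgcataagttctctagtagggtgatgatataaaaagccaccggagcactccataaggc
IL11: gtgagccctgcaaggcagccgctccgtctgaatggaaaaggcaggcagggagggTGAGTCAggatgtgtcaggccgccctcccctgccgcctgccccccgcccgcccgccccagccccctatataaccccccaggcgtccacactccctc
These windows are chr4:73869243-73869392 on the plus strand for CXCL1, chr4:74099196-74099345 on the minus strand for CXCL2, chr4:74038690-74038839 on the minus strand for CXCL3, chr4:73740419-73740568 on the plus strand for CXCL8 and chr19:55370464-55370613 on the minus strand for IL11. The windows of CXCL2, CXCL3 and CXCL8 run into the deposited gene models, which start upstream of the RefSeq starts, and those of CXCL1 and IL11 end at the start of theirs.

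The promoter windows of CXCL1 and CXCL2 were identical at 135 of 148 aligned bases, those of CXCL1 and CXCL3 at 132 of 148, and those of CXCL2 and CXCL3 at 130 of 149. On both strands the windows were searched for the NF-kB consensus, for the letters GGAATTTCC (chosen after the sequences were read, and overlapping the consensus in CXCL1, CXCL2 and CXCL3), for TTGCNNAA as a C/EBP motif and for TGANTCA as an AP-1 motif. The NF-kB consensus was found in CXCL1, CXCL2, CXCL3 and IL6, that is in 4 of the 7 genes, and in 6.19% of all 35116 promoter windows of this length. GGAATTTCC stood in CXCL1, CXCL2, CXCL3 and CXCL8, and in 0.253% of all windows. TGANTCA was found in CXCL8 and IL11, and in 4.17% of all windows, while TTGCNNAA was found in none of the 7 genes and in 5.02% of all windows. A match describes the letters of a window and says nothing of binding in these cells.

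Library totals lay between 17777157 and 18917790 counts, so 1 CPM, the unit of count per library size after scaling for composition (TMM), corresponded to 17.1 to 19.7 counts. Genes with any count numbered 22855 to 23545 in control and 26359 to 26755 in HSD52_OE libraries. TMM factors were 0.940 to 0.987 in control and 1.04 to 1.05 in HSD52_OE libraries. The part of this difference in the results was not tested. HSD52 rose from 0.569 ± 0.148 CPM to 68.1 ± 1.22 CPM (SD, n = 3), in the direction of the labels. Control libraries stood further apart from each other (a chi-square over all genes, divided by its degrees of freedom, of 16.7 to 20.5 for a pair) than HSD52_OE libraries did (2.32 to 3.76). Of 11 glioma markers 10 were tested, with SOX2, GFAP and PTPRZ1 higher, SOX9, EGFR, S100B and CD44 lower, and VIM, NES and OLIG2 not called. Of 12 leukocyte and microglia markers, AIF1 and CD3E were among those with no count in any library, and the list summed to 1.67 to 3.93 CPM in control and 3.38 to 4.98 CPM in HSD52_OE libraries. The 6 endothelial markers summed to 1.98 to 3.19 and 1.46 to 2.26 CPM in the same order. The 8 fibroblast and pericyte markers, none of them at 0 in all libraries, moved with the group. They summed to 112 to 205 CPM in control and 41.6 to 43.6 CPM in HSD52_OE libraries, with 7 lower and 1 higher, and their part in the results was not tested. Of 7 markers of RNA quality and nuclear retention, MALAT1, NEAT1 and KCNQ1OT1 rose and none fell, and their part was not tested either. The counts of lower and higher markers are from edgeR's quasi-likelihood test, and 0 of these 7 had an unadjusted p under 0.05 in the lower direction. By the same test 25.6% of all genes tested were lower and 25.0% higher. Called differences of at least 2-fold were lower for 3.49% and higher for 10.5% of genes tested.

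Expression of CCL2, CXCL1, CXCL3, CXCL8 and CSF1 fell in HSD52_OE cells, by 2.24-fold for CXCL3 to 8.47-fold for CXCL1. LIF, IL11, IL6 and IL1B were not called in either direction, and CXCL2 had too few counts to test. Genes were tested over the whole table with edgeR's quasi-likelihood test, and called at a Benjamini-Hochberg adjusted p under 0.05. So 5 of the 9 genes tested were called lower, where 25.6% of the 16322 genes tested were lower. All 5 fell by at least 2-fold, as did 570 of the 4173 genes called lower, or 3.49% of genes tested. The groups did not overlap for these 5 of the 9, and for 58.9% of all genes tested, so this separation is not particular to them. None was called higher by edgeR, DESeq2 or limma-voom, none had an unadjusted p under 0.05 in that direction, and 25.0% of genes tested were higher. In bulk RNA a smaller part of cells making a transcript and less of it per cell cannot be told apart.

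**Figure D1:**
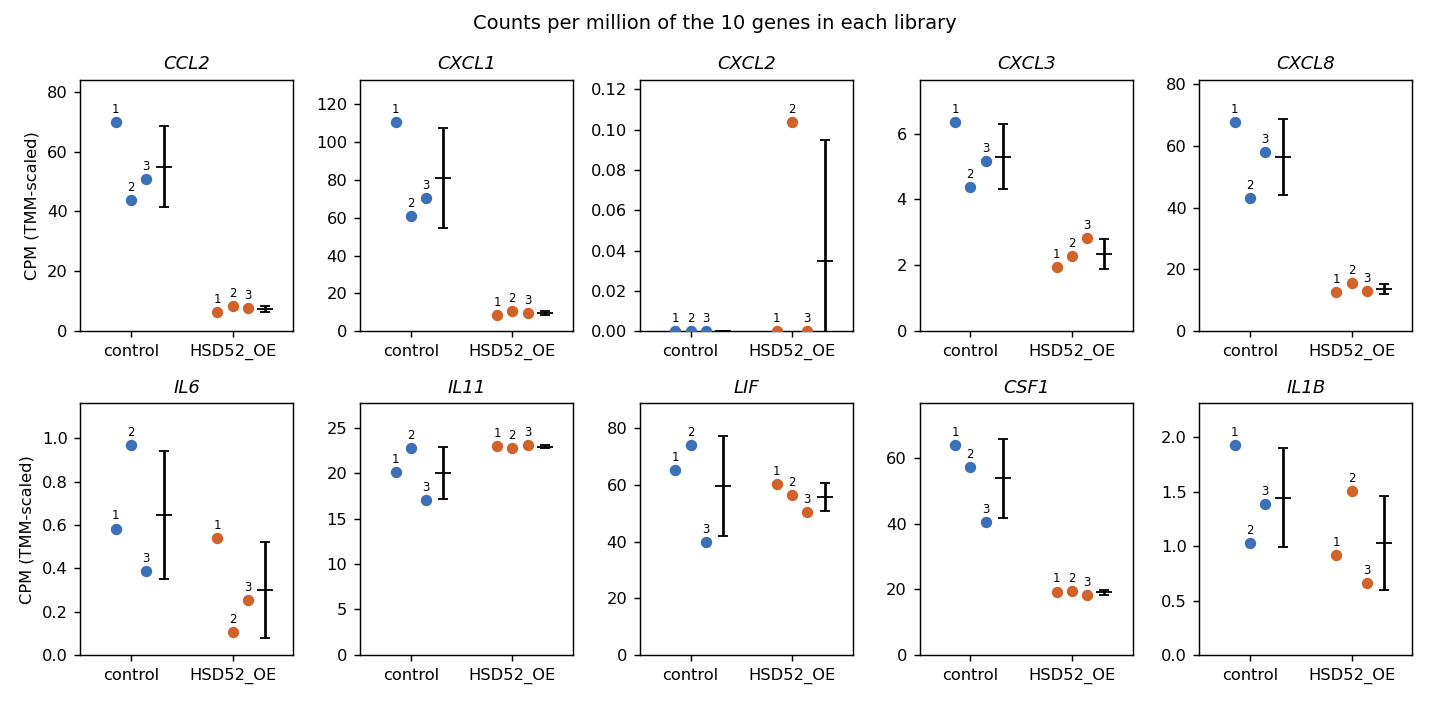
Each panel shows 1 gene on its own linear axis in CPM (TMM-scaled), with 1 point per library numbered by replicate and the mean ± SD of 3 libraries beside the points. Control and HSD52_OE points do not overlap for CCL2, CXCL1, CXCL3, CXCL8 and CSF1, and they overlap for IL6, IL11, LIF and IL1B, while CXCL2 has counts in 1 library alone.

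CCL2, the monocyte attractant (ENSG00000108691, chromosome 17, 34255218 to 34257203, plus strand), was at 70.0, 43.9 and 50.9 CPM in control replicates 1 to 3 and at 6.35, 8.38 and 7.62 CPM in HSD52_OE replicates 1 to 3. Every HSD52_OE library was below every control library, and control 1 stood highest. On the log2 scale CCL2 fell, with a fold change of -2.88 ± 0.17 (SE; adjusted p = 1.96e-08 by edgeR's quasi-likelihood test).

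CXCL1, a neutrophil attractant (ENSG00000163739, chromosome 4, 73869393 to 73871242, plus strand), had the highest control level per length of the 10 genes and the lowest log2 fold change. It was at 111, 61.1 and 70.5 CPM in the control and at 8.34, 10.5 and 9.75 CPM in the HSD52_OE libraries. The groups were far apart although control 1 was well above the other control libraries. CXCL1 had a log2 fold change of -3.08 ± 0.23 (adjusted p = 1.20e-05, edgeR), and 0.172% of genes tested had a lower one.

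CXCL8, also called interleukin 8 (ENSG00000169429, chromosome 4, 73740506 to 73743716, plus strand), was at 67.8, 43.1 and 58.1 CPM in the control and at 12.5, 15.6 and 13.1 CPM in the HSD52_OE libraries. The groups did not overlap, and again control 1 was highest and control 2 lowest. CXCL8 had a log2 fold change of -2.04 ± 0.15 (adjusted p = 8.62e-08, edgeR).

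CXCL3, a close relative of CXCL1 (ENSG00000163734, chromosome 4, 74036589 to 74038807, minus strand), was much less abundant, at 6.36, 4.38 and 5.16 CPM in the control and at 1.94, 2.29 and 2.84 CPM in the HSD52_OE libraries. The groups were separate but closer than those of CXCL1. For CXCL3 this gave a log2 fold change of -1.16 ± 0.21 (adjusted p = 0.000369, edgeR).

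CXCL2 (ENSG00000081041, chromosome 4, 74097035 to 74099293, minus strand) had 0 counts in 5 libraries and 2 in HSD52_OE replicate 2. A count of 0 allows up to 3 counts, or 0.152 to 0.175 CPM in a library, so no difference was detectable at this depth. CXCL2 thus stayed near 0 beside CXCL1, whose promoter window it nearly copies. In the GENCODE 29 transcripts, 79 of the 1581 windows of 100 bases in CXCL2 also occur in CXCL3, and none occurs in CXCL1. How the authors' counting treated reads that fit both CXCL2 and CXCL3 is not given in the sources used here, so the values of these copies are uncertain by that much.

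CSF1, the macrophage growth factor (ENSG00000184371, chromosome 1, 109910242 to 109930992, plus strand), fell as well. It was at 63.9, 57.1 and 40.4 CPM in the control and at 19.3, 19.5 and 18.3 CPM in the HSD52_OE libraries. The lowest control library, replicate 3, was still above every HSD52_OE library. CSF1 had a log2 fold change of -1.50 ± 0.14 (adjusted p = 5.61e-07, edgeR).

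**Figure D2:**
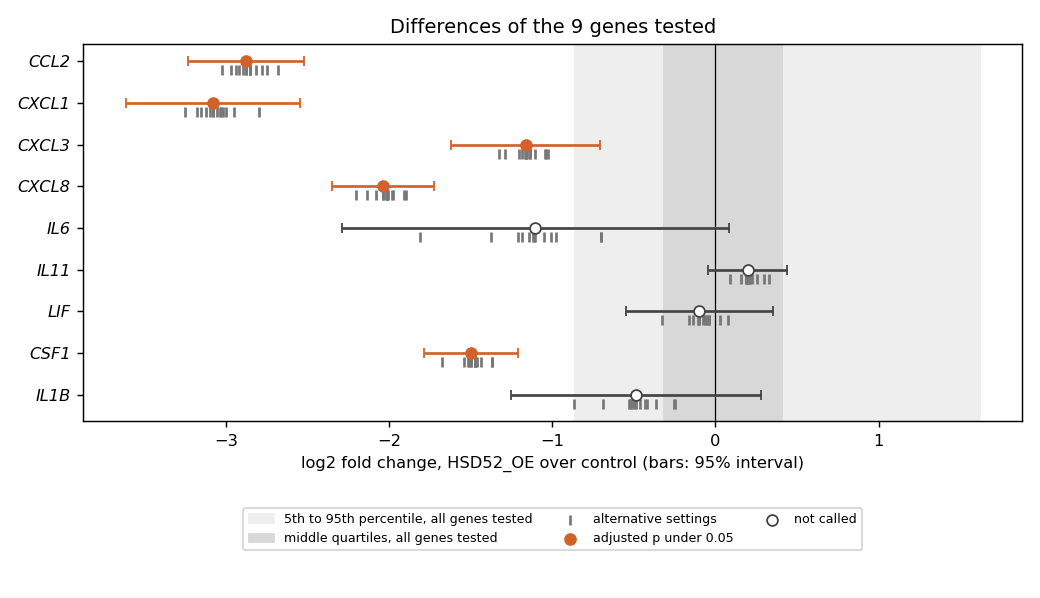
Points show the log2 fold change of HSD52_OE over control for the 9 genes tested, with bars for the 95% interval, and grey ticks the values under alternative settings; the shaded bands span the 5th to 95th percentile and the middle quartiles of all genes tested. CXCL1, CCL2, CXCL8, CSF1 and CXCL3 lie below the 5th percentile of all genes, at -3.08 to -1.16, as does the uncalled IL6 at -1.11, while IL11 and LIF lie within the middle of the distribution, at 0.20 and -0.10.

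The gp130 cytokines LIF and IL11 were abundant and showed no called difference. LIF, a factor that maintains stem cells (ENSG00000128342, chromosome 22, 30240447 to 30246851, minus strand), was at 65.4, 74.0 and 40.0 CPM in the control and at 60.3, 56.5 and 50.5 CPM in the HSD52_OE libraries. The HSD52_OE libraries all lay within the control range. LIF had a log2 fold change of -0.10 ± 0.20, with a 95% interval of -0.55 to 0.35 (adjusted p = 0.700, edgeR). Without control replicate 3, the lowest, LIF was called lower at -0.33 (adjusted p = 0.00855 in edgeR), and over all alternatives its adjusted p ran from 0.00855 to 0.905. Its direction turned with library totals as the scaling (0.03) and without control replicate 2 (0.08). LIF overlaps the antisense genes AC004264.1 and LIF-AS1, which held 28 and 3 counts over the control libraries, where LIF held 3141. Over the HSD52_OE libraries these antisense genes held 76 and 8 counts, and LIF held 3201.

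IL11, a cytokine of stromal and bone marrow cells (ENSG00000095752, chromosome 19, 55364389 to 55370463, minus strand), was at 20.1, 22.8 and 17.0 CPM in the control and at 23.0, 22.7 and 23.1 CPM in the HSD52_OE libraries. The HSD52_OE values were nearly equal to each other and overlapped control replicate 2. IL11 had a log2 fold change of 0.20 ± 0.11, with a 95% interval of -0.04 to 0.44 (adjusted p = 0.161, edgeR). Without control replicate 2 it was 0.30 (adjusted p = 0.0380 in edgeR) and with library totals 0.33 (0.0246), so IL11 was called higher in both, and over all alternatives its adjusted p ran from 0.0246 to 0.469.

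IL6, the founding member of this cytokine family (ENSG00000136244, chromosome 7, 22725884 to 22732002, plus strand), was close to the limit of the depth. Its counts were 10, 17 and 7 in the control and 10, 2 and 5 in the HSD52_OE libraries. The groups overlapped, with 10 counts in both HSD52_OE replicate 1 and control replicate 1. IL6 had a log2 fold change of -1.11 ± 0.56, with a 95% interval of -2.29 to 0.08 (adjusted p = 0.111, edgeR). Without HSD52_OE replicate 1 it was -1.81 and called (adjusted p = 0.0426 in edgeR), and over all alternatives its adjusted p ran from 0.0426 to 0.396. IL6 overlaps STEAP1B on the other strand by 1730 bases, and without strand in the counting the 34 and 17 counts of the groups cannot be assigned to it with certainty.

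IL1B, of the interleukin 1 family (ENSG00000125538, chromosome 2, 112829751 to 112836903, minus strand), had 33, 18 and 25 counts in the control and 17, 29 and 13 in the HSD52_OE libraries. The groups overlapped. IL1B had a log2 fold change of -0.49 ± 0.36, with a 95% interval of -1.26 to 0.28 (adjusted p = 0.274, edgeR), and a change of 2-fold lies within that interval.

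The order of the 10 genes by level was not the same in the groups. Per length, in CPM per kilobase of the deposited gene model, CXCL1 led in control cells at 62.4 ± 20.4, above CCL2 (27.7 ± 6.80), CXCL8 (24.8 ± 5.45), LIF (15.1 ± 4.45), CSF1 (9.93 ± 2.23) and IL11 (7.48 ± 1.07). CXCL3 (2.39 ± 0.449), IL1B (0.467 ± 0.147), IL6 (0.313 ± 0.142) and CXCL2 (0) followed (SD, n = 3). The library ranges of CCL2 and CXCL8, of LIF and CSF1, of CSF1 and IL11, and of IL1B and IL6 overlapped. Ranges were compared over libraries and not within each library, so an overlap does not show equal levels. In HSD52_OE cells LIF led at 14.1 ± 1.25, followed by IL11 at 8.58 ± 0.0632, CXCL1 at 7.36 ± 0.848, CXCL8 at 6.03 ± 0.709, CCL2 at 3.75 ± 0.515 and CSF1 at 3.51 ± 0.118 CPM per kilobase. There the ranges of CXCL1 and CXCL8, of CCL2 and CSF1, of IL1B and IL6, and of IL6 and CXCL2 overlapped. LIF made up 18.1% ± 5.24 of the counts of the 10 genes in control and 42.2% ± 2.72 in HSD52_OE libraries, and CXCL1 24.0% ± 3.80 and 7.22% ± 0.831. All 10 together held 5115 to 6971 counts in control and 2475 to 2637 in HSD52_OE libraries (exact permutation p = 0.1, 2-sided, the smallest that 3 against 3 allows, and 0.18 after Benjamini-Hochberg adjustment over 9 library measures).

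Whether genes shifted by the same factor was compared pair by pair. For each of the 36 pairs of genes tested, the log2 ratio of their CPM values was compared between groups. The ratios did not overlap for 25 pairs (each with an exact permutation p = 0.1, the smallest possible, and 0.144 after Benjamini-Hochberg adjustment over 36 pairs, so none passes the correction). The share over pairs of all genes was not computed, and 58.9% of single genes tested did not overlap. A pair of a called and an uncalled gene can separate through the calls alone. CXCL1 against CXCL8 shifted by -1.02, CXCL1 against CXCL3 by -1.89 and CCL2 against CXCL8 by -0.83 on the log2 scale. CCL2 against CXCL1 shifted by 0.18. The ratio of CXCL3 to CSF1 overlapped between the groups, as did that of IL11 to LIF.

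**Figure D3:**
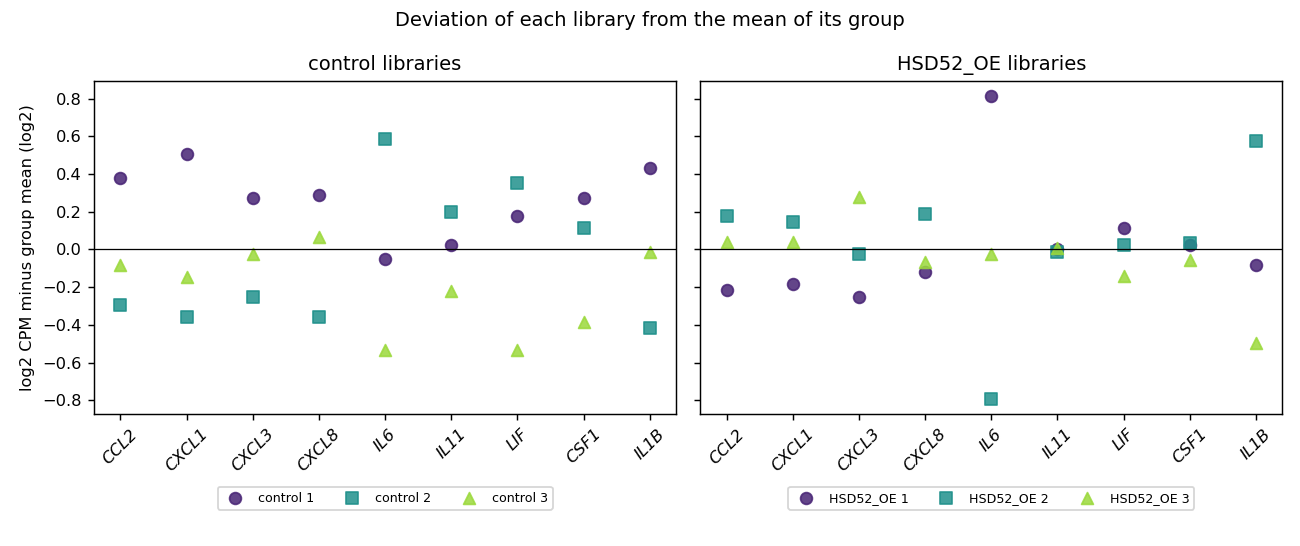
Each point is the log2 CPM of 1 gene in 1 library minus the mean of its group, with control libraries on the left and HSD52_OE libraries on the right. Among control libraries CCL2, CXCL1, CXCL3, CXCL8 and IL1B share 1 order, with replicate 1 highest and replicate 2 lowest, while IL6, IL11 and LIF are highest in replicate 2 and lowest in replicate 3.

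Within the control group the genes split by library. Control replicate 1 was highest and replicate 2 lowest for CCL2, CXCL1, CXCL3, CXCL8 and IL1B, whereas replicate 2 was highest and replicate 3 lowest for IL6, IL11 and LIF. CSF1 was highest in replicate 1 and lowest in replicate 3. Among the HSD52_OE libraries replicate 1 was lowest for CCL2, CXCL1, CXCL3 and CXCL8. The spread was wider in control than in HSD52_OE libraries for 6 of the 9 genes, such as LIF, with a range of 0.89 against 0.26 in log2 CPM, and CSF1, with 0.66 against 0.09. It was not wider for CXCL3, IL6 and IL1B. Control libraries also stood further apart over all genes, as given above, so a wider spread is not particular to these genes. With 3 libraries a group this is a description.

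The 5 protein-coding genes whose centred log2 CPM profile over the 6 libraries lay nearest to the mean profile of the 9 genes were FAM129A (Euclidean distance 0.07), MMP2 (0.13), CPD (0.21), SUPT6H (0.21) and LRP5 (0.22). MMP2, a matrix protease, was at 2060 ± 331 CPM in control and 843 ± 29.0 CPM in HSD52_OE libraries. All 5 were lower in HSD52_OE cells, which follows from their choice by this profile and is no separate result. The 6 libraries fall into 2 groups, and the distances include the difference between these.

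Most other chemokine genes had few or no counts. Of the 46 chemokine ligand genes in the table, 23 had any count and 8 passed the low-count filter. Of these, 4 are described above, and among the other 4 tested 2 were lower and 2 higher (median log2 fold change 0.17, against 0.01 over all genes tested). CX3CL1, the membrane-bound chemokine fractalkine, fell from 39.6 ± 8.06 to 30.4 ± 0.571 CPM (log2 fold change -0.38). It lost its call without control replicate 1 (-0.23, adjusted p = 0.0814 in edgeR's quasi-likelihood test), without HSD52_OE replicate 2 (-0.37, 0.0541) and with library totals (-0.25, 0.0804). CCL20, an attractant of dendritic and T cells, fell from 2.38 ± 0.757 to 1.05 ± 0.408 CPM, with groups that overlapped. CXCL16, the ligand of CXCR6, rose from 5.10 ± 0.844 to 8.41 ± 1.59 CPM, and CXCL14 rose from 0.114 ± 0.0987 to 1.44 ± 0.408 CPM. The control value of CXCL14 rests on 3, 0 and 3 counts, so the size of its rise is uncertain. CXCL14 shares bases with SLC25A48 and, over 8601 bases, with AC034206.1, and CXCL16 with MED11. All lie on the opposite strand, which makes CXCL14 and CXCL16 uncertain if strand was not used.

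Of 10 gp130 family ligands 7 were tested, 1 was higher and none lower (median 0.13), beside 25.0% and 25.6% of all genes tested. By DESeq2 and limma-voom 0 were lower, and 0 were lower at an unadjusted p under 0.05. The higher one was CNTF, a neurotrophic factor, at 1.88 ± 0.759 and 3.89 ± 0.999 CPM. In the IL1 family 2 of 11 genes were tested. IL1A, which signals through the same receptor as IL1B, fell from 6.86 ± 2.50 to 2.31 ± 0.332 CPM (-1.57 ± 0.26 in log2, adjusted p = 0.000140, edgeR). Of 6 colony-stimulating and stem cell factors 2 were tested, CSF1 and KITLG. KITLG, the ligand of the receptor KIT, moved opposite to CSF1, from 64.7 ± 17.0 to 171 ± 3.44 CPM (1.40 ± 0.15, adjusted p = 9.34e-06 in edgeR). Of 51 other interleukin, TNF family and interferon genes 16 were tested, with 5 higher and 4 lower (median -0.13), shares near the 25.0% and 25.6% of all genes tested. IL32 (log2 fold change -1.13), IL7 (-0.84) and the TNF family gene TNFSF12 (-0.77) fell, and TNFSF13 (1.18) and TNFSF4 (1.56) rose. CNTF, KITLG, IL7, IL32, TNFSF12 and TNFSF13 overlap other genes in their annotation.

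The receptors that would answer these ligands in the same cells were present for the gp130 and IL1 cytokines, and near 0 for CCL2, CXCL8 and CSF1. CCR2 and CXCR1 had no count in any library, which allows up to 3 counts in each, and CXCR2 had 1 count in all. CSF1R was at 0.533 ± 0.294 and 0.557 ± 0.0604 CPM, with an abundant pseudogene, RPL7P1, within its bounds. IL6ST, the shared gp130 chain, was at 156 ± 25.1 and 152 ± 7.07 CPM, and IL6R at 21.6 ± 4.15 and 21.9 ± 0.545 CPM, control first, and neither was called. LIFR fell from 51.3 ± 3.62 to 37.5 ± 1.61 CPM and OSMR, the oncostatin M receptor chain, from 134 ± 15.3 to 65.3 ± 1.69 CPM. IL11RA, the specific receptor of IL11, rose from 4.54 ± 1.40 to 9.95 ± 1.16 CPM (1.13 ± 0.20 in log2, adjusted p = 0.000221, edgeR). IL1R1, the signalling receptor of IL1A and IL1B, fell from 28.5 ± 0.884 to 20.4 ± 0.372 CPM. ACKR1, a receptor that binds chemokines without signalling, fell from 9.52 ± 1.11 to 3.32 ± 0.586 CPM. IL6ST, IL6R, LIFR, OSMR, IL11RA, IL1R1 and ACKR1 overlap other genes in their annotation. In all, 10 of 15 receptors were tested, with 2 higher and 4 lower (median -0.14), beside 25.0% and 25.6% of all genes tested. Of 17 other chemokine receptors 2 were tested, with CCR10, which lies over CNTNAP1, lower (-1.02) and CCR1 higher (0.68). CCR1 lost its call in edgeR when control replicate 1 (0.65, adjusted p = 0.0626) or 3 (0.64, 0.0553) was left out, when HSD52_OE replicate 1 (0.57, 0.121) or 3 (0.69, 0.0601) was left out, with no low-count filter (0.64, 0.0709) and in DESeq2 (0.69, 0.0568).

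Genes of the NF-kB system and C/EBP factors were mostly lower. Of 14 NF-kB subunits, inhibitors and C/EBP factors, all tested, 12 were lower and 0 higher (median log2 fold change -0.83, edgeR's quasi-likelihood test). Over all genes tested 25.6% were lower and 25.0% higher. By DESeq2 and limma-voom 0 of the 14 were higher, and 0 were at an unadjusted p under 0.05. CEBPD fell from 83.0 ± 12.7 to 10.8 ± 0.818 CPM, CEBPB from 356 ± 11.2 to 97.9 ± 1.94 CPM, and the NF-kB subunits RELB (log2 fold change -1.27) and NFKB2 (-1.20) fell too. The inhibitor gene NFKBIA, itself a target of NF-kB, fell from 63.1 ± 8.62 to 33.0 ± 2.90 CPM. This list was known to move from earlier results of these data and is no independent evidence.

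Of 20 genes often induced together with these cytokines 15 were tested, with 9 lower and 2 higher (median -0.48). The shares over all genes tested were 25.6% lower and 25.0% higher. NFKBIA and TNFAIP3 are in this list and in the one before, and the 9 fell to 6 without HSD52_OE replicate 3. The inhibitor of apoptosis gene BIRC3 fell from 2.92 ± 0.880 to 0.515 ± 0.360 CPM and the acute-phase gene SAA1 from 6.84 ± 4.49 to 0.192 ± 0.197 CPM. PTGS2, the inducible cyclooxygenase, was at 9.50 ± 0.880 and 7.64 ± 3.16 CPM and was not called.

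Of 14 tested genes that set the life of cytokine mRNAs, 6 were lower and 2 higher (median -0.04). Over all genes tested 25.6% were lower and 25.0% higher, and 50.6% were called in either direction. With library totals 4 were lower and 4 higher, and without HSD52_OE replicate 2 there were 4 lower and 2 higher. ZC3H12A, the RNase regnase-1 that degrades cytokine mRNAs, fell from 34.3 ± 7.19 to 12.2 ± 0.559 CPM, and ZFP36L2, which binds AU-rich elements, from 123 ± 11.1 to 64.2 ± 2.67 CPM. ELAVL1, the stabilising protein HuR, fell from 156 ± 0.846 to 107 ± 4.67 CPM, and MAPKAPK2, a kinase that acts on this machinery, from 144 ± 5.22 to 90.3 ± 1.16 CPM. TIA1, which represses translation of AU-rich mRNAs, rose from 71.6 ± 8.40 to 98.3 ± 2.67 CPM. ZFP36, tristetraprolin, was at 18.2 ± 1.30 and 21.8 ± 5.50 CPM and was not called. Among 10 tested genes of IL1B processing and release 2 were lower and 2 higher (median 0.20), beside 25.6% and 25.0% of all genes tested. GSDME, among the lower calls, was lost in 11 of 14 alternatives, and the higher calls were 4 without control replicate 3 and with library totals. The inflammasome genes CARD8 and NLRP1 rose, from 14.3 ± 1.56 to 20.9 ± 0.886 CPM and from 41.0 ± 1.40 to 51.7 ± 1.07 CPM. CASP1, the protease that cuts IL1B, was at 0.832 ± 0.152 and 0.856 ± 0.237 CPM, and GSDMD, the pore through which IL1B leaves the cell, fell from 37.4 ± 4.55 to 27.7 ± 2.14 CPM.

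**Figure D4:**
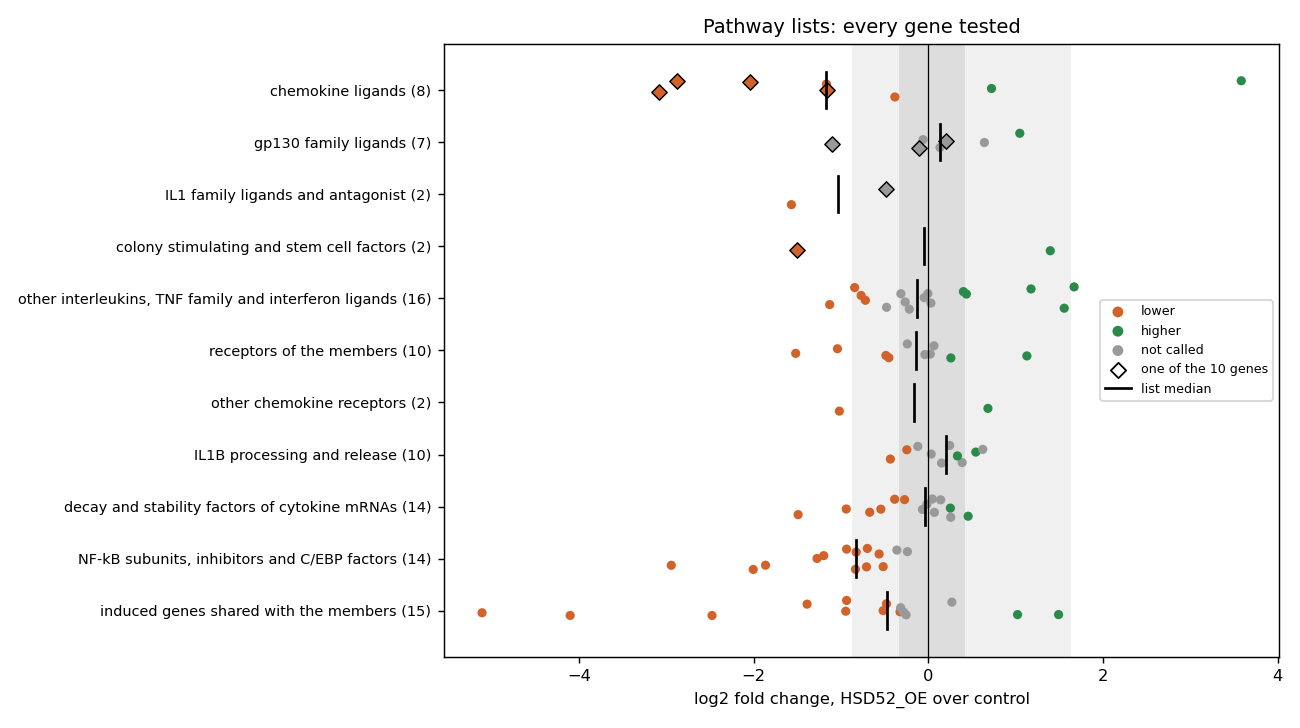
Each point is the log2 fold change of 1 tested gene (number of genes in parentheses), with diamonds for the genes of this report, black bars for list medians and shaded bands for the 5th to 95th and 25th to 75th percentiles of all genes tested. CXCL1, CCL2 and CXCL8 are the lowest chemokine ligands, and CCL20, which is not a gene of this report, lies at -1.17 beside CXCL3 at -1.16. Of 14 NF-kB and C/EBP genes 12 are lower, against 25.6% of all genes tested, and the gp130 ligands hold none called lower.

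The neighbours of each gene were counted from the same test, leaving out the 10 genes themselves. Of 33 tested genes whose start lay within 1 Mb of that of CSF1, 19 were lower and 4 higher (57.6% lower, against 25.6% of all genes tested). Around CCL2 3 of 9 tested neighbours were lower, around CXCL1 2 of 5, around CXCL2 3 of 6, around CXCL3 2 of 6, and around CXCL8 2 of 4, and the windows of the cluster genes share neighbours. Around IL6 2 of 14 were lower and 4 higher, and around IL1B 5 of 28 were lower and 8 higher. Around LIF 7 of 35 were lower and 15 higher, and around IL11 19 of 46 were lower and 13 higher.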

How the data were processed

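RNA from 3 control and 3 HSD52_OE libraries was measured by poly-A RNA sequencing on an Illumina NovaSeq. The deposited values were raw counts per gene, which the authors made with HISAT2 2.0.5 on hg38 and featureCounts 1.5.0-p3, per the submitters' processing notes; for the annotation release and strand setting, these sources say nothing. Gene length and coordinates are those of the deposited table, per the file headers. All genes were filtered with filterByExpr, scaled by TMM and tested with edgeR 4.0.16 (robust quasi-likelihood, group alone, R 4.3.3), with Benjamini-Hochberg adjustment over 16322 genes. Alternatives used DESeq2 1.42.0 and limma 3.58.1. SE is the log2 fold change over the root of the F statistic, and intervals use the t distribution with the degrees of freedom of that test. The steps were tested on simulated data. The 10 genes and the lists were chosen with earlier results of these data known. From each list up to 6 called genes with a group mean of at least 1 CPM could be named, by smallest p, and receptors or inhibitors of the 10 genes by level; PTGS2, ZFP36, CASP1 and the markers given by name were picked with their values known. For the 2 symbols with 2 rows (SOD2 and RGS5) the first was used. Same-numbered libraries were not paired. Reads carried no molecular identifiers, so floors cover counting error only. Library depth is given in the report.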

Additional observations from a re-analysis of the deposited data

How the results depend on the processing

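CCL2, CXCL1, CXCL3, CXCL8 and CSF1 kept their direction and call in all 70 refits (14 alternatives for each), with log2 fold changes of -3.02 to -2.68, -3.25 to -2.80, -1.33 to -1.03, -2.20 to -1.90 and -1.68 to -1.37. IL6, IL11, LIF and IL1B kept their side of the threshold in 51 of 55 refits, the 4 others being those given for IL6, IL11 and LIF above. The number of the 10 genes called higher was 1 with library totals, and 0 to 1 when each library was left out. With library totals as the scaling, the median over the table shifted up by 0.12 in log2, and 5337 genes were higher and 2933 lower (64.5% of calls higher), where TMM had 4086 and 4173 (49.5%). Same-numbered libraries deviated together only weakly (r = 0.04, 0.03 and 0.03), each correlating best with its own number, and the fit with a replicate block called 4210 genes higher and 4226 lower, 5 of the 10 genes lower and 0 higher. Of the 57 other list genes called, 42 kept their call in every refit that tested them, and 0 reversed. At this depth differences in CXCL2, IL6 and IL1B are limited by counting.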
